A study of Mus musculus with 9 samples.

Results

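RAW 264.7 cells that had received calycosin and then lipopolysaccharide (LPS) were compared with RAW 264.7 cells that had received vehicle, gene by gene, across all genes with enough counts to test. RAW 264.7 is an established mouse macrophage line, and the labels call each library a biological replicate. The comparison used the libraries of 2 groups, 6 of the 9 libraries of the series. The vehicle group (3 libraries) received solvent, with neither agent, for a time that the labels do not give. The calycosin plus LPS group (3 libraries) was held with calycosin at 100 µg/mL for 24 h and then exposed to LPS at 300 ng/mL for 6 h. A group with LPS alone at the same dose and time (3 libraries) is given beside them as the activated state. No group received calycosin without LPS, so a difference from vehicle combines both agents, and their separate shares cannot be told apart from these 2 groups. All groups are the same line in the same medium with serum, and a transformed line stands for a primary macrophage only in part.

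LPS, a component of the outer membrane of Gram-negative bacteria, is sensed by the receptor TLR4 with its partners CD14 and MD-2 (Ly96). One arm of the signal, through MyD88, leads to NF-kappaB and to transcription of cytokines and chemokines. The other arm, through TRIF (Ticam1), leads to interferon-beta, which acts back on the cell to switch on a large set of antiviral genes. Activated macrophages also slow their division and rebuild their metabolism. Calycosin is an isoflavone of Astragalus root, a plant used in traditional medicine. The question put to the data was how much of the activated state was still present after calycosin and LPS, and which genes were at the level of resting cells.

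The promoters of 4 genes from the ends of that range are shown first, to show the letters that were counted in the promoters of the groups of genes described below. Cxcl10, Gbp5 and Il6 were among the genes most above vehicle, and Gins3, a subunit of the replicative helicase complex, was lowered by LPS and lay within 2-fold of vehicle after calycosin and LPS. Each sequence is the 250 bases before the RefSeq transcription start, 5′ to 3′ on the strand of the gene, from GRCm38.p6. Capitals mark matches, on either strand, to an interferon response element (GAAANNGAAA), a kappaB site (GGGANNTTCC) or an E2F site (TTTCCCGC), and N stands for any base. The positions are chr5:92348890-92349139 on the minus strand for Cxcl10, chr3:142496684-142496933 on the plus strand for Gbp5, chr5:30012864-30013113 on the plus strand for Il6 and chr8:95633309-95633558 on the plus strand for Gins3.
Cxcl10: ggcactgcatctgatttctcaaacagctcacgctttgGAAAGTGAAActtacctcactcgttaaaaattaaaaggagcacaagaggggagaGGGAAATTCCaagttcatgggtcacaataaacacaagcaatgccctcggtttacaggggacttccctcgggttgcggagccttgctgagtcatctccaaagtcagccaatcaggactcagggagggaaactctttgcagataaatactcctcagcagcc
Gbp5: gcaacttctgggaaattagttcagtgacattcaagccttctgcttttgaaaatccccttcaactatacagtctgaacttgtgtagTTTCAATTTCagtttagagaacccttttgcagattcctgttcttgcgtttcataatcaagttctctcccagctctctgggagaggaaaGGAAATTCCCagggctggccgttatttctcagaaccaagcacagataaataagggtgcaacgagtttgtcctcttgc
Il6: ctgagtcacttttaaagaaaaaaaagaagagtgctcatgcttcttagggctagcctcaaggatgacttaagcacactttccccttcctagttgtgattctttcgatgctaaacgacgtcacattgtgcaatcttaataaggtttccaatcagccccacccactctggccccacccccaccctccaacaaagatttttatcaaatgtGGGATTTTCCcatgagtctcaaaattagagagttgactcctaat
Gins3: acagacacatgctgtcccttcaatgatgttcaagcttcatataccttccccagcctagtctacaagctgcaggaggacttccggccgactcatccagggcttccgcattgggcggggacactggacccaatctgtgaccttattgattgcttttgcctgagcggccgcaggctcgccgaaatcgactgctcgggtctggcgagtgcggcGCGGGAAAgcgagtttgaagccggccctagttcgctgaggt
The capitals in Cxcl10 are the interferon response element at -213 to -204 and a kappaB match at -159 to -150, counted back from the start site. In Gbp5 the interferon response element was read on the other strand at -165 to -156 and the kappaB match, also on the other strand, at -77 to -68. In Il6 a kappaB match stood at -44 to -35, and in Gins3 an E2F match stood on the other strand at -41 to -34.

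Counted over windows from 250 bases before to 50 after the start, the interferon response element was present in 3.44% of all 32851 RefSeq promoters. For groups of genes the unit differs from that of single promoters: each gene counted once, with a match in any of its promoters. Of 14434 genes tested with a symbol of their own, 9691 had a promoter there, and 398 of these (4.11%) held the element. Among genes called higher than vehicle and at least 2-fold, 1296 of 1944 had a promoter there, and 130 of these held it (10.0%). Among those at least 16-fold higher, 53 of 201 did (26.4%). In the list of interferon-stimulated genes it was present in 13 of 24 genes with a promoter, and in that of guanylate-binding proteins and immunity-related GTPases in 9 of 10. Among genes called lower and at least 2-fold the share was 2.29%, and among genes within 2-fold of vehicle 2.86%. The kappaB letters were in 1.83% of genes tested with a promoter and in 2.47% of those called higher and at least 2-fold. Among those at least 16-fold higher the share was 6.97% (14 of 201), and among those called lower and at least 2-fold 1.41%. They were in 3 of 10 chemokine genes, 3 of 15 cytokine and growth factor genes and 2 of 22 genes of NF-kappaB and its feedback. The E2F letters were in 2.38% of genes tested with a promoter, in 7 of 30 DNA replication genes and in 0 of 26 mitosis genes. They were in 2.29% of genes called lower and at least 2-fold, 1.16% of those called higher and at least 2-fold and 2.92% of those within 2-fold. A cyclic AMP response element (CRE, TGACGTCA), also counted, was in 3.74% of genes tested with a promoter. It was in 3.86% of those at least 2-fold higher, 1.49% of those at least 16-fold higher and 2.99% of those at least 2-fold lower. Of genes that LPS raised at least 2-fold and that lay within 2-fold of vehicle, 162 had a promoter. The interferon response element was in 4.32% of these, kappaB in 3.09%, E2F in 1.85% and CRE in 1.23%. No difference in these shares was tested. A match of letters is a description of the sequence, and no binding was measured.

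Total gene counts ran from 31285425 to 35138718 in the vehicle libraries, from 33925342 to 38524105 with calycosin plus LPS and from 27784737 to 31038241 with LPS alone. Of 51826 genes counted, 26019 had no count in any library and 14458 were tested. Levels are given as CPM, counts scaled to the effective library size, and a count of 3, taken as the floor of detection, was 0.0602 to 0.137 CPM. A value written with ± is a mean with its SD over 3 libraries, unless SE is named. The macrophage markers Csf1r, Spi1, Cd68 and Mpeg1 had enough counts to test, and Fcgr1 stood at 35.1 CPM or more in every library. The levels of Csf1r, lower in both treated groups, are given below. Of 28 markers of other cell types, 14 had no count in any library. Their summed level was at most 1.73 CPM with vehicle, 2.63 CPM with calycosin plus LPS and 7.69 CPM with LPS alone. The share of counts from mitochondrially encoded genes was uneven: 3.79%, 3.68% and 21.9% in vehicle libraries 1 to 3 and 17.2%, 7.45% and 19.4% in calycosin plus LPS libraries 1 to 3. Vehicle library 3 and calycosin plus LPS library 2 thus stood apart from the others of their groups, and values without them are given where a result moved. In bulk RNA, fewer cells of a kind and less RNA per cell cannot be told apart. With 3 libraries against 3, an exact permutation test of 1 gene cannot go below p = 0.1, so the adjusted p-values rest on the spread shared across genes in edgeR.

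After calycosin and LPS the cells remained far from the resting state. Of the 14458 genes tested, 7085 (49%) were called at an adjusted p under 0.05 in edgeR's quasi-likelihood test, 3672 (25.4%) of them higher than vehicle and 3413 (23.6%) lower. At an unadjusted p under 0.05 there were 8099. At least 2-fold higher were 1949 (13.5%), and at least 2-fold lower were 1721 (11.9%). A further class, 5846 genes (40.4%), had a 95% interval of the fold change that lay wholly within 2-fold of vehicle, and 1621 of these were also called. Neither called nor held within 2-fold were 3148 genes, for which these libraries decide nothing. The median log2 fold change over all genes tested was -0.0045. Counts of list members below are to be set beside these shares of all genes tested: 25.4% higher, 23.6% lower and 40.4% within 2-fold. The split between higher and lower depended on the scale: limma on the deposited TPM, with 1 added before the log, called 1500 higher and 3707 lower, and with 0.1 added it called 1496 higher and 3537 lower. On those scales the median of all genes was shifted by -0.33 and -0.43 on the log2 scale. There the TPM was used as deposited, without the scaling between libraries (TMM) that the counts had. The TMM factors were 1.42, 1.42 and 1.05 in vehicle libraries 1 to 3 and 0.942, 1.11 and 0.896 with calycosin plus LPS. With RLE size factors the median was -0.029, and with DESeq2 -0.030. The part of the scaling in the shift was not tested. The smaller rises named below, and calls lost on a TPM scale, should be read with that shift in mind.

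**Figure D1:**
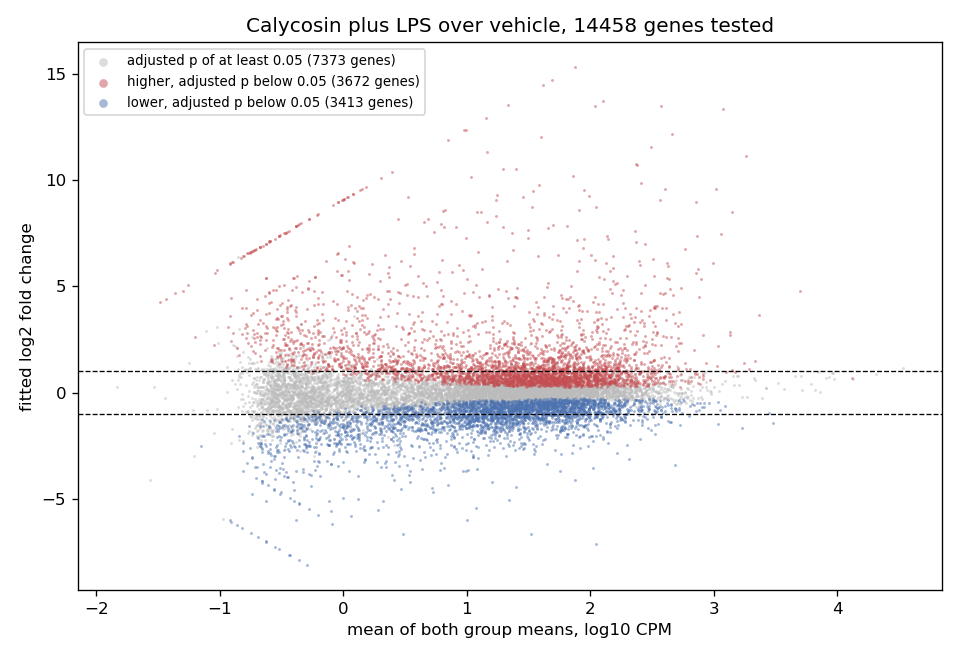
Fitted log2 fold change between calycosin plus LPS and vehicle (positive where the treated cells are higher) against mean log10 CPM, 1 point per gene tested except 1 gene without counts in both groups, with dashed lines at 2-fold and streaks at the left from genes without counts in 1 group. The points spread above the upper dashed line (1949 genes called and at least 2-fold higher) and below the lower one (1721), with the widest rises among genes that had few or no counts in vehicle cells.

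LPS alone called 2361 genes (16.3% of those tested) at least 2-fold higher than vehicle and 2501 (17.3%) at least 2-fold lower, and these sets describe the activated state. The vehicle libraries are shared by both comparisons, so the following counts are descriptions and not independent evidence. Of the 2361 raised genes, 1959 (83.0%) were called higher than vehicle after calycosin and LPS, 1522 of them at least 2-fold, while 229 (9.70%) lay within 2-fold of vehicle and 10 were called lower. Of the 2501 lowered genes, 1740 (69.6%) were called lower, 1244 of them at least 2-fold, while 435 (17.4%) lay within 2-fold of vehicle and 24 were called higher. These classes overlap, since 116 of the 229 and 147 of the 435 were also called. Within 2-fold and not called were 113 raised (4.79%) and 288 lowered genes (11.5%). Neither called nor held within 2-fold were 279 raised (11.8%) and 449 lowered genes (18.0%). The median log2 fold changes over vehicle were 1.88 with LPS and 1.40 with calycosin plus LPS in the raised set, and -1.67 and -1.07 in the lowered set. Most genes that LPS had raised were thus still above vehicle, and most that it had lowered were still below.

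The cytokine genes that report macrophage activation were high. Il6, a cytokine of the acute phase response (ENSMUSG00000025746, chromosome 5, positions 30013114 to 30019981, GRCm38), read 0, 0 and 0 CPM with vehicle, 131, 146 and 169 CPM with calycosin plus LPS and 326, 364 and 376 CPM with LPS alone. All 3 treated libraries were far above vehicle libraries that had no count, which makes Il6 at least 2096-fold higher against the floor of 3 counts per library. Tnf, the early inflammatory cytokine, read 27.4, 30.3 and 21.4 CPM with vehicle and 1203, 1821 and 1387 CPM with calycosin plus LPS, and the groups did not overlap. Its log2 fold change was 5.80 ± 0.23 (SE, adjusted p = 5.6e-08), with LPS alone at 2905 CPM. Il27, which shapes T cell responses, stood at 176 ± 24.6 CPM (SD, n = 3) against 0.220 ± 0.112 with vehicle. Tnfsf10, the death ligand TRAIL, rose to 79.5 ± 3.04 CPM from a vehicle level under the floor in each library, and Ifnb1, the interferon that relays the TRIF arm, read 4.32, 6.43 and 5.67 CPM against 0.0402, 0 and 0. Of 26 cytokine and growth factor genes listed, 22 had enough counts to test. Of these, 21 were called higher and none lower, with Vegfa, an angiogenic factor, within 2-fold at log2 -0.17. The list's median log2 fold change was 6.58, or 5.63 when the 3 genes without vehicle counts are taken at their lower bound. Those 3 passed the count filter only through the treated libraries, so they could not be called lower.

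The interleukin-1 genes lay far below their level with LPS alone, yet they were called higher than vehicle. Il1b, whose product is released through inflammasomes, read 0.251, 0.493 and 0.259 CPM after calycosin and LPS, against 0, 0 and 0 CPM with vehicle and 31.9, 35.02 and 38.8 CPM with LPS alone. The treated libraries lay just above the floor, at least 4.70-fold higher than vehicle (adjusted p = 2.4e-04), and the call was lost on the log2(TPM + 1) scale (adjusted p = 0.0778). Il1a, the membrane-bound relative, read 4.17, 4.25 and 5.38 CPM against 0, 0.123 and 0.213 CPM with vehicle and 178 CPM on average with LPS. Csf3, the granulocyte growth factor, had the same order of groups, with 24.8, 47.7 and 30.4 CPM after calycosin and LPS, 746 CPM with LPS and a vehicle mean of 0.0539 CPM, under the floor. Edn1, which encodes the vasoconstrictor endothelin, reached 0.603 CPM with calycosin plus LPS and 22.9 CPM with LPS, with no count in vehicle. Serpinb2, an inhibitor of plasminogen activators, was the least certain of these: its calycosin plus LPS libraries read 0.0940, 0.235 and 0 CPM and overlapped vehicle at 0, 0 and 0 CPM. The call for Serpinb2 (adjusted p = 0.0210) was lost without calycosin plus LPS library 2, and with LPS alone it read 24.1 CPM.

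Of 20 chemokines listed, the secreted attractants of leukocytes, 16 had enough counts to test. All 16 were called higher and at least 2-fold, with a median log2 fold change of 7.40. With the 3 members that had no vehicle counts at their lower bound, the median was 4.82. Those 3 passed the count filter only through the treated libraries, so they could not be called lower. Against LPS alone 9 of the 16 were lower and 2 higher, where 12.9% of all genes tested were lower and 16.1% higher. Cxcl10, an attractant of CXCR3-bearing lymphocytes and an interferon target, read 0.361, 0.103 and 0.213 CPM with vehicle and 2324, 2235 and 2567 CPM with calycosin plus LPS. With LPS alone it read 2209, 1991 and 2044 CPM. The calycosin plus LPS libraries were thus just above those of LPS, a difference that edgeR did not call (log2 0.19, 95% interval -0.30 to 0.68, adjusted p = 0.546). Cxcl11, its close relative, stood at 255 ± 124 CPM with calycosin plus LPS and at 0.0203 CPM with vehicle. Ccl2, the monocyte attractant, read 1.91, 2.14 and 1.34 CPM with vehicle, 238, 263 and 323 CPM with calycosin plus LPS and 2013, 2055 and 1348 CPM with LPS alone. The 3 groups of Ccl2 values did not overlap, and calycosin plus LPS remained 151-fold above vehicle (log2 7.24 ± 0.28 SE, adjusted p = 5.1e-08). Ccl5 and Cxcl2, attractants of T cells and neutrophils, were at 514 ± 81.3 and 2088 ± 533 CPM, against vehicle means of 0.517 and 2.67 CPM. Ccl22, a ligand of CCR4, stood at 47.3, 49.9 and 52.3 CPM after calycosin and LPS and at 15.5, 17.1 and 15.6 CPM with LPS alone, so that calycosin plus LPS was the higher treated group (log2 difference 1.63, adjusted p = 0.00127).

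**Figure D2:**
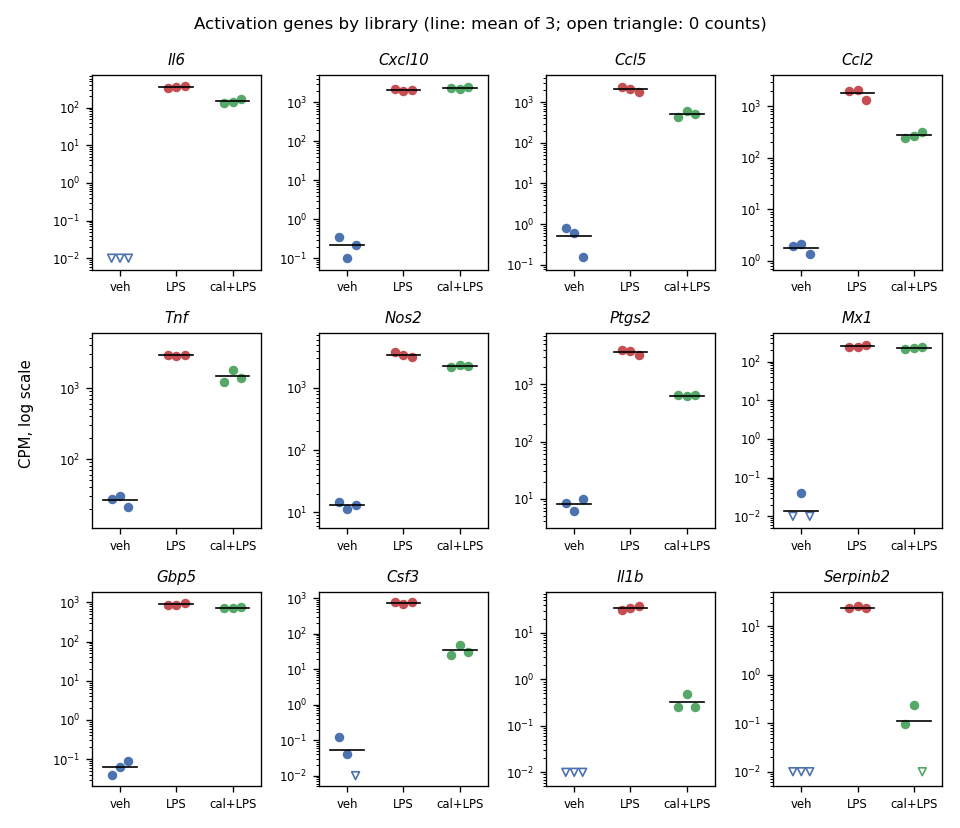
Level of 12 inflammatory genes in each of the 9 libraries, in CPM on a log axis, by group (vehicle, LPS, calycosin plus LPS); open triangles stand for libraries with 0 counts, drawn at 0.01. For Cxcl10, Mx1 and Gbp5 the calycosin plus LPS points lie close to the LPS points, whereas for Il1b (mean 0.334 CPM) and Serpinb2 (mean 0.110 CPM) they lie far below the LPS points.

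The interferon programme remained far above rest. All 34 interferon-stimulated genes tested were called higher than vehicle, with a median log2 fold change of 4.96 beside 5.44 for LPS alone. Against LPS alone, calycosin plus LPS was lower in 15 of them and higher in none, beside 12.9% and 16.1% of all genes tested. Mx1, a GTPase that traps influenza virus, read 0, 0.0411 and 0 CPM with vehicle, 207, 219 and 234 CPM with calycosin plus LPS and 240.4, 243 and 271 CPM with LPS. The vehicle libraries were under the floor, so no fold is given, and edgeR did not call the difference between the treated groups (log2 -0.19, 95% interval -0.57 to 0.18, adjusted p = 0.416). Rsad2, which makes an antiviral nucleotide, stood at 3664 ± 203 CPM (SD, n = 3) against 1.61 ± 0.315 with vehicle, or log2 11.14 ± 0.26 (SE, adjusted p = 3.0e-09) over vehicle. Ifit3, Ifit3b and Ifit1 are antiviral effectors, and they reached 475, 146 and 799 CPM from 0.267, 0.125 and 1.04. Ifit3 and Ifit3b are close paralogs, so reads may be divided between them by the counting. Stat2, a factor that carries the interferon signal, was 14.3-fold above vehicle, at 478 ± 19.4 CPM. Slfn1 and Ifi205, a pair of interferon-inducible genes, had no vehicle count and reached 97.9 and 43.3 CPM, at least 1378-fold and 609-fold higher.

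The 16 guanylate-binding proteins and immunity-related GTPases tested, which attack vacuoles that hold microbes, were all called higher, with a median log2 fold change of 8.44 (8.95 with LPS). Gbp5 read 0.0402, 0.0617 and 0.0912 CPM with vehicle, 729, 737 and 763 CPM with calycosin plus LPS and 852, 871 and 949 CPM with LPS, so that both treated groups were far above vehicle and differed by log2 -0.26 (adjusted p = 0.132). Gbp2b was 4620.1-fold above vehicle at 923 ± 153 CPM. Iigp1 had no vehicle count and 79.8, 81.6 and 85.3 CPM after calycosin and LPS, at least 1157-fold higher. Several genes of this family are near-identical copies, and counts may be divided among them. Trim30c, a relative of a TLR regulator, was likewise without vehicle counts and reached 28.8 CPM. Sele, the adhesion molecule E-selectin, read 19.8, 20.1 and 18.7 CPM after calycosin and LPS, at least 275-fold above vehicle, and 10.4, 11.2 and 9.43 CPM with LPS alone.

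**Figure D3:**
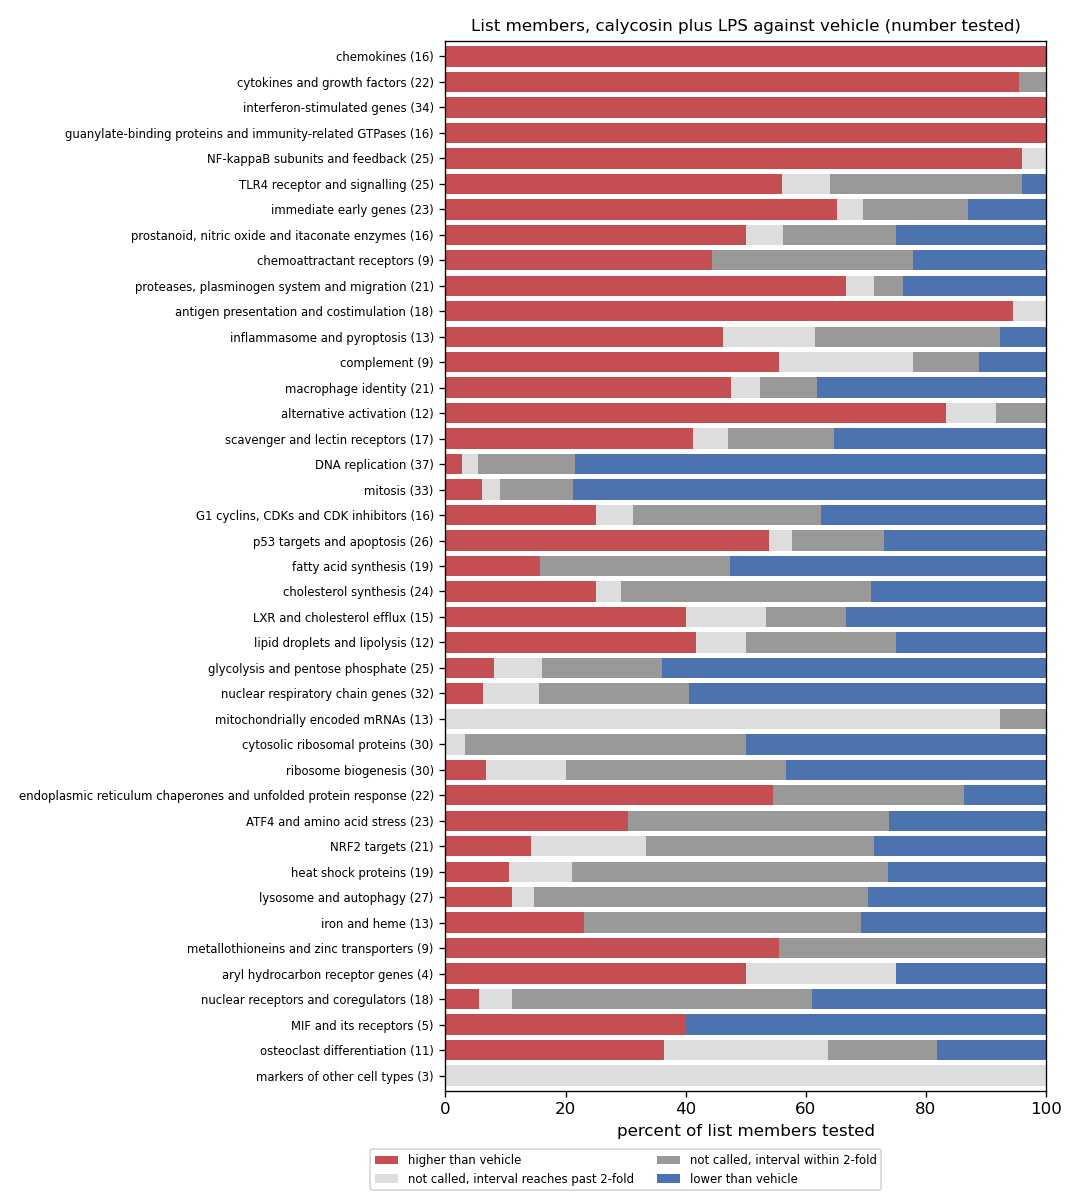
Percent of the tested members of each gene list that were called higher than vehicle, called lower or not called (with the 95% interval within 2-fold or not) in calycosin plus LPS cells, as stacked bars, 1 bar per list. The bars of the chemokines, interferon-stimulated genes and guanylate-binding proteins are wholly higher (16 of 16, 34 of 34 and 16 of 16), while those of DNA replication and mitosis are mostly lower (29 of 37 and 26 of 33). Members without vehicle counts, 3 of the chemokines and 1 of the guanylate-binding list, could not be called lower.

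NF-kappaB subunits and their feedback regulators were called higher in 24 of 25 genes tested and lower in none (1 without vehicle library 3), with a median log2 fold change of 2.95 (3.12 with LPS). Nfkbiz, an atypical inhibitor that is needed for Il6 transcription, read 11.7, 10.96 and 20.4 CPM with vehicle and 712, 447 and 757 CPM with calycosin plus LPS, with no overlap. Traf1 and Socs1, a TNF receptor adaptor and an inhibitor of cytokine signals, had log2 fold changes of 5.87 ± 0.29 and 5.69 ± 0.24 (SE). Zfp36, which destabilises cytokine mRNAs, stood at 219 ± 7.75 CPM against 12.04 ± 2.80. The exception was Dusp2, a phosphatase of MAP kinases, with 3.32 CPM against 5.92 (adjusted p = 0.119).

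Signalling components of TLR4 itself were divided. Of 25 tested, 14 were called higher, 1 lower and 11 lay within 2-fold of vehicle, the last near the 40.4% over all genes tested. The higher count was 9 on the log2(TPM + 1) scale, and the lower count was 4 without vehicle library 3 and 2 without vehicle library 2 or calycosin plus LPS library 2. Ikbke, the kinase of IRF3 that NF-kappaB induces, was the most raised at 343 ± 46.5 CPM against 14.1 ± 2.78 (log2 4.61 ± 0.18 SE). Tlr2 and Irf5, a sensor of lipoproteins and a factor for cytokine genes, rose by log2 2.84 and 2.76. Irak2, a kinase that sustains the signal, rose by 2.50. Cd14, the co-receptor that hands LPS to TLR4, was at its resting level: 551, 555 and 435 CPM with vehicle, 473, 587 and 457 CPM with calycosin plus LPS and 1305, 1196 and 1244 CPM with LPS alone. Its vehicle and calycosin plus LPS libraries overlapped, and the log2 fold change was -0.02 with a 95% interval of -0.35 to 0.31. Cd14 was singled out after its values were seen.

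Of 23 immediate early genes tested, 15 were called higher and 3 lower, and the higher count was 9 on the log2(TPM + 1) scale. Egr1, a growth factor response gene, stood at 454 ± 104 CPM against 2.37 ± 1.32, and Nr4a3, an orphan nuclear receptor, at 8.94 CPM with a vehicle mean under the floor. Myc read 11.5, 8.50 and 15.2 CPM after calycosin and LPS against 0.161, 0.0617 and 0.517 CPM with vehicle, so its groups did not overlap. Nr4a2, a sister of Nr4a3, went the other way, with 1.03, 0.681 and 0.874 CPM against 3.11, 2.75 and 6.11 CPM with vehicle and 6.47, 5.17 and 4.32 CPM with LPS (log2 -2.21 ± 0.35 SE, adjusted p = 7.0e-04).

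Enzymes that make small-molecule mediators were divided as well, 8 of 16 called higher and 4 lower, or 7 lower without vehicle library 3. The count of 4 lower was near the 23.6% over all genes tested. Nos2, the inducible nitric oxide synthase, read 14.6, 11.2 and 12.96 CPM with vehicle, 2168, 2375 and 2292 CPM with calycosin plus LPS and 3810.4, 3408 and 3112 CPM with LPS. Ptgs2, the inducible cyclooxygenase, read 8.55, 6.17 and 9.85 CPM with vehicle, 642, 624 and 645 CPM after calycosin and LPS and 3941, 3825 and 3303 CPM with LPS. Both were far above vehicle in every treated library, by log2 7.46 ± 0.20 and 6.28 ± 0.22 (SE; adjusted p = 6.4e-09 and 2.7e-08). Acod1, which makes itaconate, was 368-fold above vehicle at 2824 ± 364 CPM. A pair of leukotriene genes lay below vehicle, the lipoxygenase Alox5 at 43.2 CPM against 84.6 and its activator Alox5ap at 81.8 against 148.

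Antigen presentation and costimulation genes were higher in 17 of 18 tested with none lower, or in 9 on the log2(TPM + 1) scale. Cd40 and Cd274, a costimulatory receptor and the inhibitory ligand PD-L1, stood at 215 ± 33.5 and 817 ± 71.8 CPM against 2.80 ± 0.530 and 19.7 ± 3.31. Tap1, a peptide transporter for class I molecules, rose by log2 3.24 ± 0.24 (SE), and Icosl, a T cell costimulator, by 3.10 ± 0.16. In the inflammasome list 6 of 13 were called higher and 1 lower. Nlrp3, the sensor that assembles the inflammasome, read 23.2, 29.3 and 32.5 CPM with vehicle and 1371, 1432 and 1406 CPM with calycosin plus LPS, with no overlap. Casp4, the intracellular LPS receptor, read 11.6, 11.1 and 17.7 CPM with vehicle and 259, 208 and 258 CPM with calycosin plus LPS. Gsdmd, the pore former, lay within 2-fold at 71.7 CPM against 63.7 (log2 0.17, 95% interval -0.33 to 0.67), and it was named after its values were seen. The adaptor Pycard, which this line is known to lack, was not among the genes tested.

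Complement genes were higher in 5 of 9 tested and lower in 1, or 2 without vehicle library 3. Component C3 read 11.7, 13.98 and 11.3 CPM with vehicle, 177, 181 and 165 CPM with calycosin plus LPS and 47.9, 49.5 and 41.6 CPM with LPS alone, so it was above both other groups. Cfb, factor B of the alternative pathway, rose by log2 5.35 ± 0.37 (SE), whereas properdin (Cfp) was lower at 56.01 CPM against 119.6. Among receptors for chemoattractants, 4 of 9 were called higher, with C5ar1 and Ccrl2 at log2 5.82 and 6.80. The 2 called lower were near the 23.6% over all genes tested. Those were Cxcr4, the receptor of CXCL12, with 0.626, 0.469 and 0.194 CPM against 3.43, 3.49 and 5.17 with vehicle, and Cx3cr1, the fractalkine receptor, with 4.42, 3.83 and 4.31 against 15.8, 16.2 and 15.9.

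Genes of proteolysis, adhesion and migration were called higher in 14 of 21 and lower in 5, the latter near the 23.6% over all genes tested. The lower count was 3 without calycosin plus LPS library 1 or 3, and 8 were higher on the log2(TPM + 1) scale. Marcksl1, an actin-membrane linker, stood at 1156 ± 238 CPM against 10.5 ± 2.50, and its relative Marcks at 9.67 CPM with a vehicle mean under the floor. Icam1, an adhesion ligand, rose by log2 3.33. The integrin beta 2 chain (Itgb2) and the actin regulator Coro1a lay below vehicle, with 126 and 75.8 CPM against 218 and 152; both were named after their values were seen.

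Macrophage migration inhibitory factor (Mif), a cytokine that binds Cd74, is named in the title of the series. Mif read 595, 599.6 and 343 CPM with vehicle, 201, 297 and 222 CPM with calycosin plus LPS and 323, 310.3 and 343 CPM with LPS alone. Each calycosin plus LPS library was below each library of the other groups, at log2 -1.09 ± 0.22 (SE, adjusted p = 0.00299) against vehicle, while the difference from LPS alone did not pass the threshold (log2 -0.44, adjusted p = 0.167). Vehicle library 3, whose mitochondrial share was 21.9%, held the lowest of the vehicle values. Cd74, its receptor and the class II invariant chain, was higher at 796, 993 and 831 CPM against 405, 402 and 424 (log2 1.09 ± 0.12 SE, adjusted p = 8.5e-05), a call lost on both TPM scales. Cd44, the signalling partner of Cd74, rose from 105 ± 20.8 to 929 ± 51.8 CPM. Ddt, the homologue of Mif, was lower at log2 -0.87 ± 0.31 (SE), so of the 5 members tested 2 were higher and 3 lower, with Cxcr4 as the other lower one.

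For 5 of the 10 genes farthest below vehicle the treated groups did not differ at the threshold, and for the other 5 calycosin plus LPS was above LPS alone. Kbtbd11, a putative adaptor of ubiquitin ligases (ENSMUSG00000055675, chromosome 8, positions 15011025 to 15033333), read 261, 241 and 154 CPM with vehicle, 2.004, 0.962 and 1.85 CPM with calycosin plus LPS and 0.774, 1.03 and 1.25 CPM with LPS. Its vehicle libraries were all far above the treated ones, which overlapped each other (log2 -7.11 ± 0.34 SE against vehicle, adjusted p = 2.1e-07). Ranbp3l, H1fx and Klhl21 fell by log2 6.68, 6.00 and 5.05 and did not differ between the treated groups at the threshold (adjusted p = 0.844, 0.0800 and 0.201). Lfng, a modifier of Notch receptors, fell by 3.68 with an adjusted p of 0.252 between the treated groups. For Rarb, a retinoic acid receptor, and Chst1, a sulfotransferase, calycosin plus LPS was still low but above LPS: 1.65 against 0.619 CPM and 8.21 against 1.87 CPM, from vehicle means of 30.4 and 141. Ung, which removes uracil from DNA, read 1.82, 1.60 and 0.745 CPM against 14.1, 20.7 and 19.6 CPM with vehicle and 0.182, 0.123 and 0.208 CPM with LPS. Tmem86a and Cnnm1, a lysoplasmalogenase-like protein and a membrane protein of the cyclin M family, completed the 10 lowest at 0.651 and 2.22 CPM, from 13.5 and 47.8.

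Of 37 DNA replication genes tested, 29 were called lower and 1 higher, and 14 lay within 2-fold, near the 40.4% over all genes tested. The median log2 fold change was -0.91, beside -1.94 with LPS alone. Against LPS alone, 31 of the 37 were called higher and none lower, beside 16.1% and 12.9% of all genes tested. Mcm7, a subunit of the replicative helicase, read 98.5, 95.8 and 71.96 CPM with vehicle, 25.3, 29.2 and 25.03 CPM with calycosin plus LPS and 9.65, 10.7 and 12.3 CPM with LPS, so calycosin plus LPS lay between the other groups without overlap. Its log2 fold change over vehicle was -1.74 ± 0.16 (SE, adjusted p = 1.6e-05). Tk1 and Cdca7, a thymidine kinase and a Myc target, fell by log2 1.91 and 1.73. The helicase assembly factor Gins3 is the gene whose promoter with an E2F match was printed above, and it read 22.6, 23.00 and 15.5 CPM with vehicle, 16.1, 16.4 and 13.9 CPM with calycosin plus LPS and 3.55, 5.45 and 4.11 CPM with LPS. Its vehicle and calycosin plus LPS libraries overlapped (log2 -0.40, 95% interval -0.83 to 0.04, adjusted p = 0.120), and without vehicle library 3 it was called lower. Pcna and Prim1, a sliding clamp and a primase subunit, also lay within 2-fold at log2 -0.17 and -0.17, and Rfc3, a clamp loader subunit, was the 1 member called higher at 0.65.

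Of 33 mitosis genes tested, 26 were called lower and 2 higher, with a median log2 fold change of -0.86 beside -1.29 with LPS alone. Against LPS alone, 13 of the 33 were called higher, beside 16.1% of all genes tested. Cdc20 and Cdc25b, an activator of the anaphase complex and a phosphatase for CDK1, stood at 11.2 ± 1.28 and 15.3 ± 1.73 CPM against 42.6 ± 8.28 and 55.8 ± 2.38 with vehicle. Foxm1, the factor for late cell cycle genes, stood at 17.3 ± 4.22 CPM against 56.6 ± 15.8. The 2 members called higher were Pttg1, the separase inhibitor securin, and Cenpe, a kinetochore motor, at log2 0.99 and 0.81. Neither passed without vehicle library 1, vehicle library 2 or calycosin plus LPS library 1, and 1 did without calycosin plus LPS library 2 or 3. Top2a and Tpx2 lay within 2-fold of vehicle at -0.25 and 0.02, while Mki67, the common proliferation marker, was not decided at -0.45 (95% interval -1.05 to 0.16). In the list of G1 regulators 6 of 16 were lower, E2f2 and Cdkn2c among them at -2.28 and -1.59. The 4 called higher, near the 25.4% over all genes tested, included Cdk6 at 1.53 and the inhibitor p21 (Cdkn1a) at 1.09.

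Genes of p53 and of cell death were called higher in 14 of 26 and lower in 7, the latter near the 23.6% over all genes tested. Gadd45b, a stress gene that NF-kappaB induces, read 2.73, 2.94 and 1.73 CPM with vehicle, 81.1, 100.0 and 82.6 CPM with calycosin plus LPS and 35.97, 40.4 and 42.3 CPM with LPS. Fas, the death receptor, rose by log2 4.48 ± 0.18 (SE), and the survival genes Bcl2a1b and Bcl2a1d, near-identical copies whose reads may be shared, by 3.81 and 4.26. Sesn1 and Phlda3, both p53 targets, lay below vehicle at 7.84 ± 0.656 and 3.76 ± 0.783 CPM against 34.2 ± 2.11 and 11.4 ± 4.41.

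Genes that LPS moved strongly seldom lay within 2-fold of vehicle after calycosin and LPS. Of 641 genes that LPS raised at least 4-fold and to at least 10 CPM, 6 had an interval within 2-fold of vehicle after calycosin and LPS. Of 381 genes that it lowered at least 4-fold from at least 10 CPM, 17 did. The 6 raised genes were Fabp3, Nab2, Stap1, Sash1, Cxcr3 and Acot9. Cxcr3, the receptor of Cxcl10, read 8.78, 10.2 and 8.39 CPM with vehicle, 44.8, 43.3 and 38.2 CPM with LPS and 8.61, 14.03 and 11.2 CPM with calycosin plus LPS. Calycosin plus LPS overlapped vehicle for Cxcr3 and not LPS (log2 0.31 over vehicle, 95% interval -0.10 to 0.71, adjusted p = 0.184), but without calycosin plus LPS library 1 it was called higher than vehicle. Fabp3, a fatty acid carrier, read 2.11, 2.34 and 1.95 CPM with vehicle, 14.1, 12.1 and 11.1 CPM with LPS and 2.85, 3.24 and 2.62 CPM with calycosin plus LPS, with an interval of 0.06 to 0.83 on the log2 scale. The other 4 were within 2-fold and still called higher. Nab2, a corepressor of EGR factors, stood at log2 0.70, and Stap1, a signalling adaptor, at 0.62. Sash1, a scaffold of TLR4 signalling, stood at 0.47 and Acot9, a mitochondrial thioesterase, at 0.74, and all 4 calls were lost on both TPM scales. The interval of Stap1 no longer fitted within 2-fold without calycosin plus LPS library 2, that of Nab2 without vehicle library 1, LPS library 2 or calycosin plus LPS library 1 or 3, and that of Acot9 without vehicle library 1 or any 1 of the calycosin plus LPS libraries.

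On the lowered side the 8 genes with the largest LPS effect that lay within 2-fold of vehicle were Trp53inp1, Pcyox1, Psrc1, Gramd4, Gins3, Natd1, Rps6ka5 and Frmd4b. Pcyox1, which degrades prenylated cysteines, read 61.2, 60.7 and 55.1 CPM with vehicle, 9.38, 10.5 and 11.4 CPM with LPS and 44.6, 44.5 and 40.00 CPM with calycosin plus LPS. Psrc1, a spindle protein, read 44.4, 45.4 and 45.4 CPM with vehicle, 8.42, 8.94 and 8.06 CPM with LPS and 30.6, 33.9 and 31.7 CPM with calycosin plus LPS. Both lay much nearer to vehicle than to LPS, with log2 fold changes over vehicle of -0.46 (95% interval -0.71 to -0.20) and -0.49 (-0.72 to -0.26). Each kept an interval within 2-fold when any 1 library was left out, yet both were still called lower than vehicle. Trp53inp1, Gramd4 and Rps6ka5 were also called lower than vehicle. Psrc1 kept its call on both TPM scales, whereas Gramd4 and Rps6ka5 lost theirs there. Gramd4 also lost its call without vehicle library 1 or 2 or calycosin plus LPS library 1 or 3. Rps6ka5 also lost its call without vehicle library 2 or calycosin plus LPS library 3. Frmd4b, a scaffold at cell junctions, read 56.9, 51.9 and 95.3 CPM with vehicle, 15.3, 15.99 and 14.1 CPM with LPS and 61.3, 43.6 and 56.8 CPM with calycosin plus LPS. Natd1, a putative acetyltransferase, had means of 12.7, 2.74 and 9.70 CPM in those groups. Neither was called against vehicle (adjusted p = 0.242 and 0.161), but Frmd4b was called lower with the mitochondrial share as a covariate (log2 -0.51, adjusted p = 8.79e-04) and among libraries under or over 10% mitochondrial share alone (log2 -0.31 and -0.69). Those ranges, chosen after seeing the data, hold vehicle libraries 1 and 2 with calycosin plus LPS library 2, and vehicle library 3 with calycosin plus LPS libraries 1 and 3 and the LPS libraries. The lone library of a group is assumed there to vary like the others. The intervals of Trp53inp1, Gramd4, Rps6ka5, Natd1 and Frmd4b depended on the libraries. That of Trp53inp1 passed 2-fold without any 1 of the vehicle libraries or calycosin plus LPS library 1, and that of Gramd4 without vehicle library 1 or 3 or calycosin plus LPS library 2. Rps6ka5 did so without vehicle library 1 or 2 or calycosin plus LPS library 1 or 2, Natd1 without vehicle library 2 or calycosin plus LPS library 1 or 2, and Frmd4b without vehicle library 1 or 2 or calycosin plus LPS library 1.

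**Figure D4:**
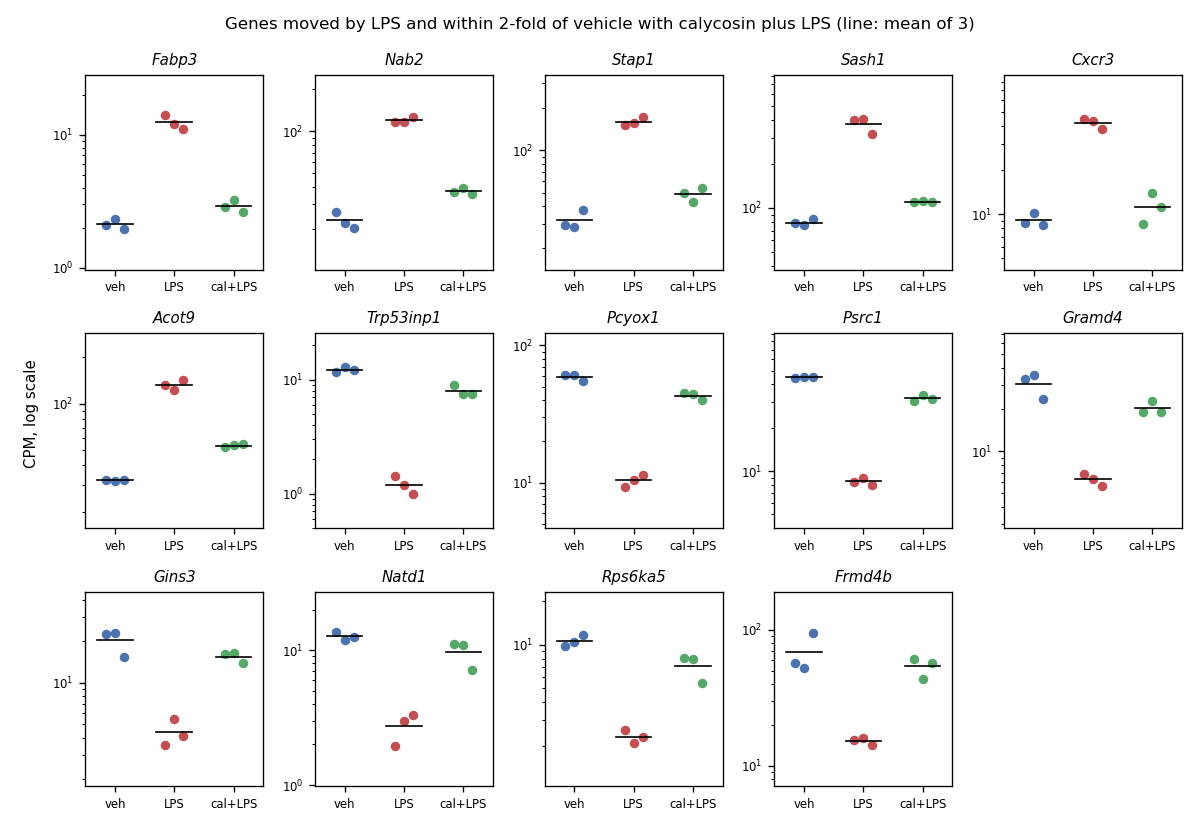
Level in each library, in CPM on a log axis, of the 6 genes that LPS raised and the 8 it lowered most among those moved at least 4-fold by LPS and within 2-fold of vehicle after calycosin and LPS. In each panel the calycosin plus LPS points lie close to the vehicle points and away from the LPS points, as for Cxcr3 (means of 9.13, 42.1 and 11.3 CPM for vehicle, LPS and calycosin plus LPS).

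Other genes near the vehicle level, named after their values were seen, had smaller LPS effects. Clec4d, a C-type lectin receptor, read 98.7, 97.3 and 131 CPM with vehicle, 103, 99.99 and 122 CPM with calycosin plus LPS and 359, 357 and 318 CPM with LPS, and Clec5a, another lectin, 164, 191 and 415 CPM on average. Fth1, the ferritin heavy chain, stood at 7280.3 ± 839.8 CPM against 7163 ± 1233 with vehicle and 11873 with LPS. The glucose transporter Slc2a1 and the kinases Hk2 and Pfkp of early glycolysis were within 2-fold at log2 0.15, 0.01 and -0.03, with intervals of -0.15 to 0.45, -0.32 to 0.35 and -0.25 to 0.19. Hmox1, the heme oxygenase that is often read as a sign of NRF2 activity, stood at 173, 208 and 150.4 CPM against 207, 198 and 173 with vehicle and 110.3, 108 and 122 with LPS. Its interval of -0.43 to 0.19 lay within 2-fold of vehicle, but with vehicle library 3 and calycosin plus LPS library 2 both left out it was called lower.

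Of 25 genes of glycolysis and the pentose phosphate path, 16 were called lower and 2 higher, with a median log2 fold change of -0.70 beside -0.41 for LPS alone. Ldha, lactate dehydrogenase, read 925, 913 and 529.7 CPM with vehicle, 249.9, 319 and 247 CPM with calycosin plus LPS and 457, 442 and 464 CPM with LPS. It lay below vehicle in each library (log2 -1.54 ± 0.21 SE, adjusted p = 2.8e-04). Pfkl and Eno1, a phosphofructokinase and enolase, fell by log2 1.48 and 1.38. In Ldha, Pfkl and Eno1 vehicle library 3, whose mitochondrial share was 21.9%, lay nearest to the treated libraries, with Pfkl at 169, 165 and 90.2 CPM and Eno1 at 778, 756 and 415 CPM in vehicle libraries 1 to 3. Among libraries over 10% mitochondrial share alone, Pfkl and Eno1 were still called lower, at log2 -0.98 and -0.84. The 2 higher genes were Slc2a6, a lysosomal sugar transporter, at log2 1.77, and Hif1a, the hypoxia factor, at 0.80. The count of higher genes was 1 without vehicle library 1 or 2 or calycosin plus LPS library 1 or 3.

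Nuclear genes of the respiratory chain were lower in 19 of 32 and higher in 2, with 15 within 2-fold; the lower count was 9 when vehicle library 1, vehicle library 2 or calycosin plus LPS library 1 or 3 was left out, and the higher count was 1 without vehicle library 1, vehicle library 2 or calycosin plus LPS library 1. Sdhd and Ndufa2, subunits of complexes II and I, stood at 36.8 ± 6.21 and 17.4 ± 3.44 CPM against 123 ± 44.8 and 56.1 ± 28.6. In both, vehicle library 3 was far below the other vehicle libraries, as for Ndufa2 at 73.2, 72.01 and 23.2 CPM with vehicle and 14.4, 21.2 and 16.6 CPM with calycosin plus LPS. Among libraries over 10% mitochondrial share alone the log2 fold changes were -1.10 for Sdhd and -0.58 for Ndufa2, both still called lower. None of the 13 mitochondrially encoded mRNAs passed the threshold in either direction in edgeR, and 0 had an unadjusted p under 0.05, while 1 was called by DESeq2 and 12 were called higher without vehicle library 3, whose mitochondrial share was 21.9%. Cytosolic ribosomal protein genes were lower in 15 of 30, with Rps14 and Rpl13 at log2 -1.51 and -1.48. The call of Rps14 was lost on both TPM scales and without vehicle library 1 or 2 or calycosin plus LPS library 1 or 3. That of Rpl13 was lost without calycosin plus LPS library 1 (adjusted p = 0.0503). The count of lower genes was 6 without vehicle library 1, 6 without vehicle library 2, 24 without vehicle library 3, 4 without calycosin plus LPS library 1 and 5 without library 3. Within each group the summed share of this list was lower in libraries with a higher mitochondrial share, at 2.12%, 2.15% and 1.01% in vehicle libraries 1 to 3 and 0.882%, 1.25% and 0.845% with calycosin plus LPS. Over the alternative fits the log2 fold change ran from -2.24 to -0.27 for Rps14 and from -2.18 to -0.46 for Rpl13. It ran from -1.77 to -0.77 for Rps18 and from -1.76 to -0.05 for Rps2. The value of -0.05 for Rps2 came from libraries over 10% mitochondrial share alone. The part of the mitochondrial share in the ribosomal protein result was not tested. Ribosome biogenesis genes were lower in 13 of 30 and within 2-fold in 17, with the RNA polymerase I subunit Polr1b and the pseudouridine synthase Dkc1 at log2 -1.52 and -1.30.

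Fatty acid synthesis genes were lower in 10 of 19, or in 5 without calycosin plus LPS library 1 or 3, and 3 were higher, or 5 without vehicle library 3. Scd2, a fatty acid desaturase, read 526, 555 and 509 CPM with vehicle, 142, 142 and 125 CPM with calycosin plus LPS and 25.00, 25.1 and 20.1 CPM with LPS. Fasn, the fatty acid synthase, read 428, 433 and 314 CPM with vehicle, 116, 157 and 130.4 CPM with calycosin plus LPS and 59.4, 52.9 and 47.03 CPM with LPS. Both lay between the other groups, at log2 -1.96 ± 0.12 and -1.54 ± 0.17 (SE) against vehicle. In cholesterol synthesis 7 of 24 were lower, 6 higher and 14 within 2-fold, shares near those over all genes tested for the calls (23.6% lower and 25.4% higher), and the median was 0.05 beside -0.55 for LPS alone. The higher count was 3 without vehicle library 1, vehicle library 2 or calycosin plus LPS library 1. Mvd, an enzyme early in the path, was lower at log2 -1.64. Among lipid droplet genes Plin2, a coat protein, and Fabp4, a fatty acid carrier, were higher at log2 1.36 and 2.85, and Angptl4, an inhibitor of lipoprotein lipase, read 0.251, 0.375 and 0.0648 CPM against 7.37, 4.93 and 4.53 with vehicle. Of LXR and cholesterol efflux genes, 6 of 15 were called higher and 5 lower; on the log2(TPM + 1) scale none was called higher. The lower count in that list was 3 without vehicle library 1 or 2 and 2 without calycosin plus LPS library 1 or 3.

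Of 22 endoplasmic reticulum chaperone genes, 14 lay within 2-fold, 12 were called higher and 3 lower. The higher count was 7 without vehicle library 1 and 2 on the log2(TPM + 1) scale, and the lower count was 1 without vehicle library 1 or 2, LPS library 1 or 2 or calycosin plus LPS library 1 or 3. Hspa5, the main chaperone of that compartment, stood at 1244 ± 35.99 CPM against 481 ± 160.3, a call lost on both TPM scales. Of 23 ATF4 and amino acid stress genes 13 lay within 2-fold, with Ppp1r15a, which reverses the translation block, higher at log2 2.96 and Ddit4, an inhibitor of mTOR, lower at -1.84. NRF2 targets were higher in 3 of 21 and lower in 6, and the lower share was near the 23.6% over all genes tested. Prdx1, a peroxidase, read 1372, 1723 and 1396 CPM against 701, 750.4 and 452 CPM with vehicle, a call lost on both TPM scales, and Osgin1 2.38, 2.11 and 1.68 against 7.05, 7.30 and 13.8. Heat shock genes lay within 2-fold in 15 of 19, and over the list 2 were called higher and 5 lower, the latter again near the share over all genes tested. Without vehicle library 3, 6 were higher, and the lower count was 3 without vehicle library 1 or 2, 2 without calycosin plus LPS library 1 and 1 without library 3. Lysosome and autophagy genes lay within 2-fold in 18 of 27, with Ctsd, a lysosomal protease, lower at 1631 ± 287 CPM against 4372 ± 1461.

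Genes of macrophage identity moved in both directions, 10 of 21 higher, or 2 on the log2(TPM + 1) scale, and 8 lower. Csf1r, the receptor for the growth factor CSF1, read 536, 526 and 369 CPM with vehicle, 139, 155 and 122 CPM with calycosin plus LPS and 124, 127 and 129.8 CPM with LPS. The vehicle libraries were all above the treated ones, which overlapped each other (log2 -1.78 ± 0.16 SE, adjusted p = 1.7e-05). Its ligand Csf1 went the other way, from 4.41 ± 0.329 to 555 ± 29.7 CPM. Axl, a receptor for the clearance of dead cells, rose by log2 6.26 ± 0.30 (SE), and Cebpa, a factor of myeloid differentiation, and Trem2, a lipid receptor, fell by 2.16 and 1.93. Lilr4b, an immunoglobulin-like receptor, and Lcn2, an iron-withholding protein, were higher at 1426 ± 274 and 1054 ± 108 CPM against 215 ± 86.1 and 35.03 ± 1.75. Nuclear receptors were lower in 7 of 18 and higher in 1, or 3 without vehicle library 3. Nr1d1 of the circadian clock was at log2 -2.01, and Nr3c1, the glucocorticoid receptor, was the higher one at 1.14. Esr1, the oestrogen receptor alpha that isoflavones are known to bind, was low at 0.380 CPM with vehicle and 0.517 with calycosin plus LPS, and was not called (adjusted p = 0.403).

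Some genes lay beyond both the vehicle and the LPS level. Higher than both vehicle and LPS were 639 genes (4.42% of genes tested), and lower than both 487 (3.37%). These counts depended on single libraries: they were 387 and 266 without calycosin plus LPS library 1 and 421 and 288 without library 3. With vehicle library 3 and calycosin plus LPS library 2 both left out they were 1049 and 977. Adamts4, a protease of the extracellular matrix (ENSMUSG00000006403, chromosome 1, positions 171250421 to 171260637), read 0.281, 0.267 and 0.182 CPM with vehicle, 6.74, 8.90 and 7.60 CPM with LPS and 45.5, 54.02 and 38.4 CPM with calycosin plus LPS. Il23a, a subunit of interleukin-23, read 1.14, 1.19 and 1.16 CPM with vehicle, 35.6, 43.7 and 51.5 CPM with LPS and 164, 194 and 171 CPM with calycosin plus LPS. In both the 3 groups did not overlap, and calycosin plus LPS was the highest, at log2 7.51 ± 0.24 and 7.24 ± 0.19 (SE) over vehicle and 2.57 and 2.02 over LPS. Tlr9, the sensor of unmethylated DNA, read 40.5, 35.4 and 44.5 CPM against 4.94, 5.49 and 10.7 with vehicle and 11.5, 10.9 and 6.85 with LPS. LPS alone was not called against vehicle for Tlr9 (adjusted p = 0.205), nor for Grhl1 and Eya4, a pair of developmental transcription regulators (adjusted p = 0.269 and 0.904). The means of Grhl1 were 1.46, 1.86 and 10.96 CPM, and those of Eya4 3.38, 3.26 and 13.2 CPM, for vehicle, LPS and calycosin plus LPS. Asap3, a regulator of ARF proteins, Aim1l and Ifit1bl2 completed the 8, at 12.2, 24.1 and 34.04 CPM. Ifit1bl2 belongs to a family of near-identical copies, so its counts are uncertain.

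The 7 genes described here from those farthest below both other groups included a transporter, an enzyme and a matrix gene. Slco4a1, an organic anion transporter, read 976, 986 and 718 CPM with vehicle, 265, 253 and 249 CPM with LPS and 77.3, 97.7 and 76.98 CPM with calycosin plus LPS. The groups did not overlap, in that order from high to low (log2 -3.41 ± 0.17 SE over vehicle, -1.61 over LPS). Ints3, a subunit of the Integrator complex, read 135, 136 and 126 CPM with vehicle, 101, 101 and 98.3 CPM with LPS and 30.1, 34.4 and 31.7 CPM with calycosin plus LPS. Each calycosin plus LPS library lay below each library of the other groups, at log2 -2.04 ± 0.10 (SE) over vehicle. Pkd1l2, Fbln5, Uhmk1 and Fam167b had vehicle means of 46.2, 20.1, 106 and 68.1 CPM, LPS means of 59.9, 23.6, 128 and 60.2 CPM and calycosin plus LPS means of 8.91, 5.41, 33.1 and 19.2 CPM. Fbln5 is an elastic fibre protein and Uhmk1 a kinase with an RNA-binding domain. Tkfc, the triokinase of fructose breakdown, stood at 2.26 CPM against 13.4 with vehicle and 6.76 with LPS.

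**Figure D5:**
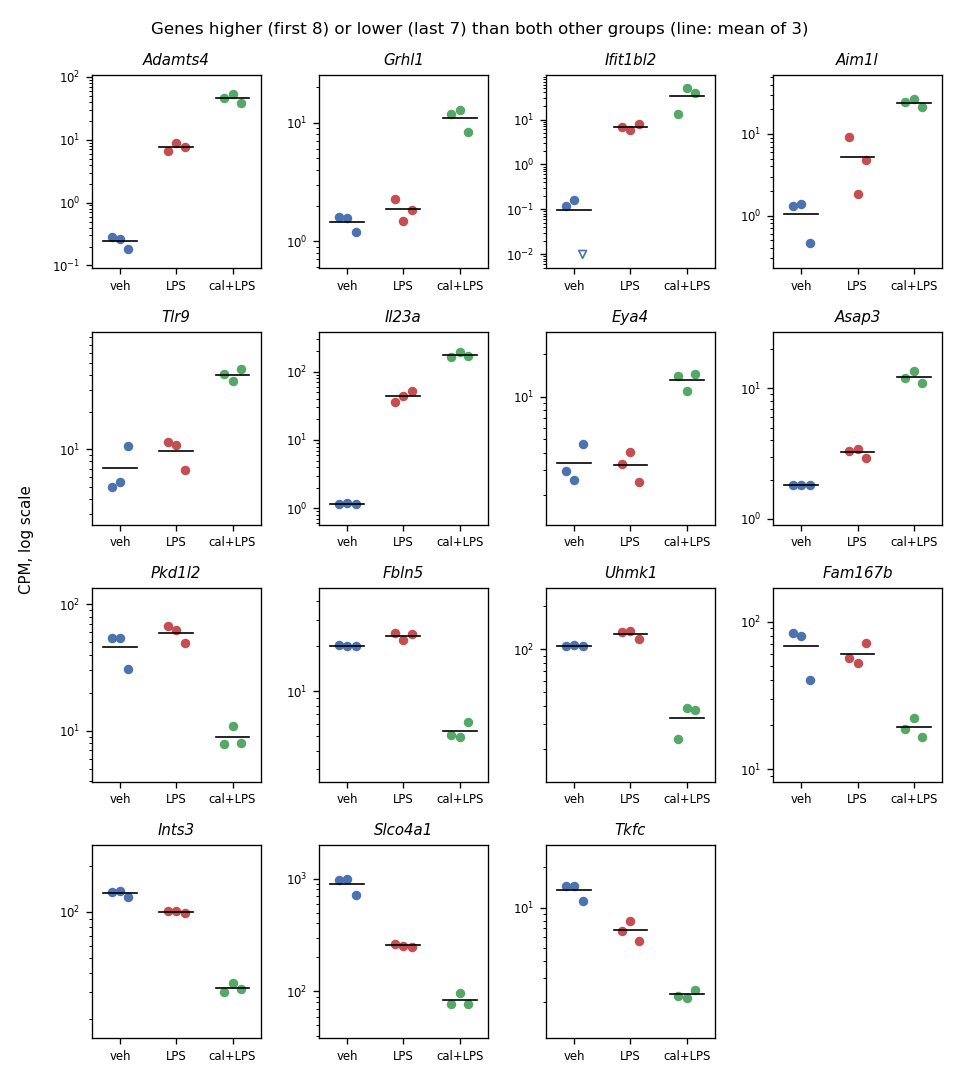
Level in each library, in CPM on a log axis, of the 8 genes farthest above and 7 of those farthest below both other groups after calycosin and LPS. The calycosin plus LPS points are the highest of the 3 groups in the first 8 panels and the lowest in the last 7, as for Il23a (mean 176 CPM) and Slco4a1 (mean 84.02 CPM).

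Smaller lists complete the account. Alternative activation genes were higher in 10 of 12 with none lower, with Tgm2 and Msr1 at log2 4.53 and 2.25 and Socs2 at 0.825 CPM from a vehicle mean under the floor. Arg1, the best known of them, was at 0.218 CPM and not called. LPS alone also called 11 of the 12 higher and 1 lower, with a median log2 fold change of 2.65, beside 1.61 with calycosin plus LPS. Of the 18 genes listed, 4 had no count in any library. Scavenger and lectin receptors were higher in 7 of 17 and lower in 6, with Clec4e, a sensor of mycobacterial lipid, at 370.5 ± 6.84 CPM against 99.7 ± 2.48. Iron and heme genes were within 2-fold in 8 of 13, with the iron exporter Slc40a1 lower at log2 -1.43. Of metallothionein and zinc genes 5 of 9 were higher, or 1 on the log2(TPM + 1) scale, led by Mt2 at 659 ± 109 CPM against 212 ± 22.5. Osteoclast genes were higher in 4 of 11 and lower in 2, or 1 without calycosin plus LPS library 1, with Mmp9 at log2 3.18. Among 4 genes of the pathway of the aryl hydrocarbon receptor, which flavonoids can bind, the target Tiparp was higher at log2 2.06. Arnt, the partner of the receptor, was called higher at 0.77, a call lost on both TPM scales and among libraries over 10% mitochondrial share alone. Nqo1 was not called at -0.19, and Ahrr stood at 0.174 CPM against 0.678, with a call that was lost without vehicle library 2, vehicle library 3 or any 1 of the calycosin plus LPS libraries.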

How the data were processed

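Polyadenylated RNA of RAW 264.7 cells was measured. The submitters' processing notes name HISAT2 2.0, StringTie 1.3.3b, Trimmomatic 0.36 and the build mm10, in no stated order. For the counter, the annotation release and the strand setting the entry is: not given in the sources used here. The authors deposited raw counts, whole numbers for 51826 genes, and TPM values for 51799 genes, which they scaled for length and depth. Of the gene symbols, 27 had been turned into dates, so genes were joined by Ensembl identifier, and 51633 identifiers matched GENCODE M21 (GRCm38), which gave positions.

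From the deposited counts, genes were kept by filterByExpr, libraries were scaled by TMM, and all 9 libraries were fitted with a term per group in edgeR 4.0.16 (R 4.3.3). Groups were compared with the two-sided quasi-likelihood F test, adjusted over all 14458 genes by Benjamini-Hochberg with a threshold of 0.05. The SE came from the test statistic. A gene was called within 2-fold of vehicle when the 95% interval of its log2 fold change lay inside ±1. Alternatives used limma 3.58.1 on log2 TPM, DESeq2 1.42.0, other filters and scalings, and fits without each library in turn, and scripts were tested on simulated data. No replicate pair of libraries was a duplicate. Floors of 3 counts and p-values cover counting error and the spread between these libraries, which carry no molecular identifiers.

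The comparison, the 41 gene lists (864 genes) and the rule for named genes were chosen with earlier results of these data known. Of the list genes 2 could not be matched, and 1 with a shared symbol was left out. Named were the 10 highest and 10 lowest fold changes (called, at least 10 CPM in the higher group, groups not overlapping), and, per list, up to 4 of the called genes that changed most. To these were added up to 8 genes on each side that LPS moved at least 4-fold and that lay within 2-fold of vehicle, the 8 farthest above and the 8 farthest below both other groups, and Ccl2, Cd74, Hmox1, Il1b, Il6, Mif, Nos2, Ptgs2 and Tnf. Some genes that this rule names are not reported here. Other genes were named after their values were seen: Alox5, Alox5ap, Arg1, Cd14, Cdkn1a, Cenpe, Cfp, Clec4d, Clec4e, Clec5a, Coro1a, Csf1, Csf1r, Cx3cr1, Cxcl2, Ddt, Dusp2, Edn1, Esr1, Fth1, Gsdmd, Hif1a, Hk2, Icam1, Ifit1, Ifnb1, Il1a, Itgb2, Mki67, Nqo1, Nr3c1, Nr4a2, Pcna, Pfkp, Phlda3, Plin2, Prim1, Pttg1, Rfc3, Sesn1, Slc2a1, Stat2, Top2a, Tpx2 and Vegfa. Promoters and start sites are from RefSeq (GRCm38.p6).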

Additional observations from a re-analysis of the deposited data

How the results depend on the processing

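Of the 7085 genes called, 4133 to 7066 were called in the same direction under each alternative, and none was called in the opposite direction under any. On the log2(TPM + 1) scale 4432 of them were called in the same direction. On that scale limma called 1500 higher and 858 at least 2-fold higher, 268 above and 65 below both other groups. Of the 928 genes that LPS raised there, 786 were higher and 65 within 2-fold, and of the 4567 it lowered, 2643 were lower. On log2(TPM + 0.1) limma called 1496 higher, 1197 at least 2-fold higher, 2913 at least 2-fold lower, 3406 within 2-fold, and 228 above and 90 below both. Of the 1185 raised genes on that scale 959 were higher and 36 within 2-fold, and of the 5727 lowered ones 2914 were lower. The sets of raised and lowered genes are redefined on each scale. Leaving out 1 library at a time gave 2851 to 4376 higher, 2523 to 4337 lower, 1709 to 2357 at least 2-fold higher, 1456 to 2266 at least 2-fold lower, 5093 to 5841 within 2-fold, 387 to 888 above both and 266 to 721 below both. In those fits LPS raised 2062 to 2708 genes and lowered 2373 to 2998. Of LPS-raised genes 1630 to 2341 were higher and 181 to 239 within 2-fold, and of LPS-lowered genes 1435 to 2288 were lower and 337 to 470 within 2-fold. Without vehicle library 3 and calycosin plus LPS library 2, 1049 genes lay above and 977 below both. With the mitochondrial share as a covariate these were 1068 and 954, and 386 of 2349 raised genes lay within 2-fold. With the libraries over 10% mitochondrial share alone, chosen after seeing the data, 1981 were lower, 970 at least 2-fold lower and 988 of the lowered genes lower. A margin of 1.5-fold left 2177 genes near vehicle. Libraries of the same number shared no source in the labels. Their deviations correlated at -0.173, 0.364 and 0.286, and those of differing numbers at -0.472 to 0.358. With 3 libraries a group, and 1 in each of the compared groups standing apart, these values cannot decide whether the numbers pair them. With the replicate block 3604 were higher, 3163 lower, 1932 and 1606 at least 2-fold, 5754 within 2-fold, and 559 above and 430 below both. The cause of these shifts was not tested. With 3 libraries a group and 2 that stood apart, small differences and the 3148 undecided genes are the limit of the depth and replication.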
